A study of Cricetulus griseus with 9 samples.

Results

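Sodium lactate was given to MI5-4 cells, a subline of Chinese hamster ovary (CHO) cells, and the mRNA of treated cells was compared with that of untreated cells by RNA sequencing. Both groups carried an empty vector, and the labels describe such cells as hexokinase null. The treated group (LAC) received 10 mM sodium lactate for 24 h and the untreated group (EV) received none, with 3 libraries in each. These 6 libraries were taken by their labels from the 9 of the study, and all 6753 genes of the deposited table entered the comparison. The other 3 libraries are labelled as MI5-4 cells with wild-type HK2 (WTHK2), without lactate, and appear only in the direct difference at the end. No group received another sodium salt, so lactate and the sodium given with it cannot be told apart. The cells belong to 1 cell line. Whether the replicates came from separate cultures is not labelled, so each p-value speaks only of the spread among these samples, which may be technical.

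Lactate is the end product of glycolysis and a fuel. Cells take it up through monocarboxylate transporters and oxidise it to pyruvate with lactate dehydrogenase, a step that turns NAD+ into NADH, and pyruvate then enters the mitochondria. Lactate is also the source of lysine lactylation, an acyl mark on histones that is written by acyltransferases such as p300 and removed by histone deacetylases and sirtuins. Hexokinases carry out the first step of glycolysis, so cells that lack them make less lactate from glucose.

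The values were normalised CPM (read counts scaled to library size), and every gene of the table had a mean of at least 20.4 CPM. Genes that the table does not list, such as Ldha and Ldhb under those symbols, were not analysed here. Effective library sizes of the LAC and EV libraries lay between 19716060 reads (LAC replicate 3) and 24417468 reads (EV replicate 2), and no gene had fewer than 334 reads in any of them. The first principal component of the 6 libraries held 78.2% of the variance and placed the EV libraries between -10.2 and -7.15. LAC replicates 1, 2 and 3 stood at 12.2, 4.31 and 9.53, so LAC replicate 2 lay nearest to the untreated cells; it was the LAC library nearest to EV in 66.3% of the genes called higher and 68.7% of those called lower. Markers of leukocytes, epithelium, endothelium and ovarian granulosa cells had 0 listed members, and 8 of 10 fibroblast or mesenchymal genes were listed, of which 4 rose and 3 fell (median log2 difference 0.087). Hk1 stood at 324 ± 7.09 CPM in EV and at 302 ± 2.22 CPM in LAC (mean ± SD, n = 3 each), with an adjusted p of 0.0224 that reached 0.201 in one alternative; its call was lost when each library was rescaled to the same median, without the variance trend and without EV replicate 1, EV replicate 2 or LAC replicate 3. Hk2 stood at 67.3 ± 2.11 CPM and 67.8 ± 2.92 CPM (adjusted p = 0.895). Reads were thus counted under both symbols in cells labelled hexokinase null, and hexokinase protein and activity were not measured here.

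Lactate-treated cells differed from untreated cells in many genes by small amounts. The immediate early gene Egr1, the chemokines Cxcl1 and Ccl2, 4 of 4 mitochondrially encoded transcripts, 54 of 63 nuclear respiratory chain genes and 33 of 35 ribosomal protein genes rose. Cdk6, Tet3, Cpd, Abca1, Acaca and 84 of 96 genes for very long proteins fell. A gene was called when its adjusted p (Benjamini-Hochberg, limma fit of log2(CPM + 1)) was under 0.05 among the 6753 genes, and "rose" and "fell" are used only of called genes; "without" a library gives the count when it was left out. With that rule 3390 genes (50.2%) were called, 1541 higher in LAC (22.8%) and 1849 lower (27.4%). The LAC and EV libraries did not overlap in 3903 genes (57.8%), of which 1824 were higher in LAC (27%) and 2079 lower (30.8%). The median fold of the called genes was 1.18. Among called genes, 424 were at least 1.2-fold higher (6.28%) and 893 at least 1.2-fold lower (13.2%), while 9 were at least 1.5-fold higher (0.133%) and 77 at least 1.5-fold lower (1.14%). The table's own scaling put 45.5% of the calls on the higher side; after rescaling all libraries to a common median, 2085 genes rose and 1479 fell (58.5% higher), and with quantile normalization 1804 rose and 1618 fell (52.7% higher). The first of these moved the median of all genes by 0.042 on the log2 scale. Differences below are log2 differences of CPM + 1, LAC minus EV, and over all genes their median was -0.0035. List counts below are to be read against 22.8% of all genes called higher and 27.4% called lower.

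**Figure D1:**
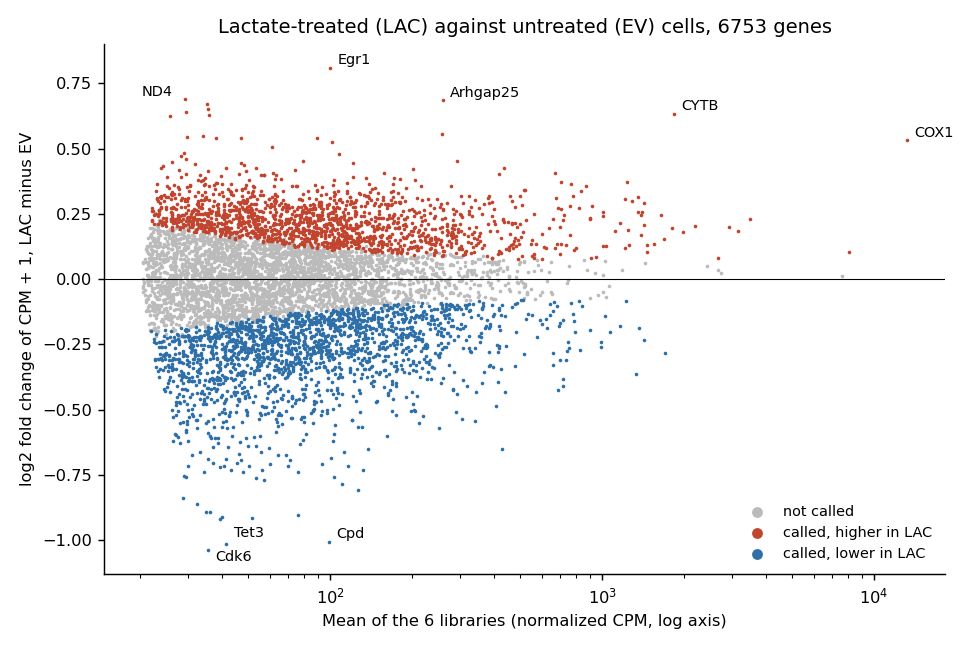
Each point is 1 of the 6753 genes, with its mean normalised CPM over the 6 libraries on a log axis and its log2 fold change of CPM + 1, LAC minus EV, on the vertical axis; colours mark genes called higher, called lower or not called. The falls reach -1.04 (Cdk6) while the highest rise is 0.81 (Egr1), and most calls lie close to 0.

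The largest rise was that of Egr1, a zinc finger transcription factor that growth factors and stress induce within minutes. Egr1 stood at 74.4, 68.0 and 74.6 CPM in the 3 EV libraries and at 133, 129 and 120.2 CPM in the LAC libraries, a log2 difference of 0.81 (SE 0.053, adjusted p = 4.45e-09). The rule for naming the largest changes took only genes whose LAC and EV libraries did not overlap. LAC replicate 3 was the lowest of the LAC libraries. Other immediate early genes moved with it. Of 16 listed members 9 rose and 3 fell, and their median difference was 0.18. Ier3, a short-lived regulator of survival signalling, had 80.6, 82.3 and 86.7 CPM in EV and 123, 118 and 119 CPM in LAC (log2 difference 0.52). Ccn2 (0.45) and Ccn1 (0.37), secreted matricellular proteins and targets of YAP and SRF, rose as well, as did the AP-1 genes Junb (0.30) and Fosl1 (0.23) and the growth regulator Myc (0.23). The 3 that fell included Fosl2 (-0.34), another AP-1 gene, and the zinc finger factor Klf6 (-0.29).

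Genes that feed back on the MAP kinase pathway did not move one way. Dusp1, a nuclear phosphatase that inactivates p38, JNK and ERK, stood at 71.4, 76.2 and 69.7 CPM in EV and 106, 109.6 and 102 CPM in LAC, a log2 difference of 0.54 (SE 0.052, adjusted p = 1.69e-07). The 3 LAC libraries lay close together here, with LAC replicate 2 the highest. Of 13 listed feedback genes 4 rose and 6 fell, with a median of -0.15; the count that rose was 2 without EV replicate 2, EV replicate 3 or LAC replicate 1. Phlda1, an ERK-induced gene, rose as well (0.29). Those that fell included the Ras GTPase activating protein Rasa1 (-0.38), the JNK and p38 phosphatase Dusp16 (-0.35) and the Raf inhibitor Spred1 (-0.28).

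Chemokines had the largest rises among 20 listed NF-kB and inflammatory genes. Of these 6 rose and 6 fell (30% each, against 22.8% and 27.4% of all genes), with a median of 0.021. That median was -0.0039 without LAC replicate 1, -0.013 without LAC replicate 2 and -0.12 with a minimum of 50 CPM. Cxcl1, which attracts neutrophils, had 28.9, 26.5 and 28.8 CPM in EV and 45.7, 44.2 and 41.8 CPM in LAC (log2 difference 0.63, SE 0.071, adjusted p = 1e-06). Ccl2, which attracts monocytes, had 194, 197 and 232 CPM in EV and 329, 299.7 and 288 CPM in LAC (0.56, SE 0.055, adjusted p = 2.72e-07). Neither gene's groups overlapped, which the rule for naming the largest changes required. EV replicate 3 stood above the other EV libraries for Ccl2. The related Ccl7 also rose (0.48). The NF-kB subunits Nfkb1 (-0.25) and Rela (-0.18) fell, as did the feedback inhibitor Tnfaip3 (-0.21), the adhesion receptor Cd44 (-0.26) and the macrophage growth factor Csf1 (-0.32). The adhesion gene Vcam1 (-0.095) and the prostaglandin synthase Ptgs2 (0.036) were not called.

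**Figure D2:**
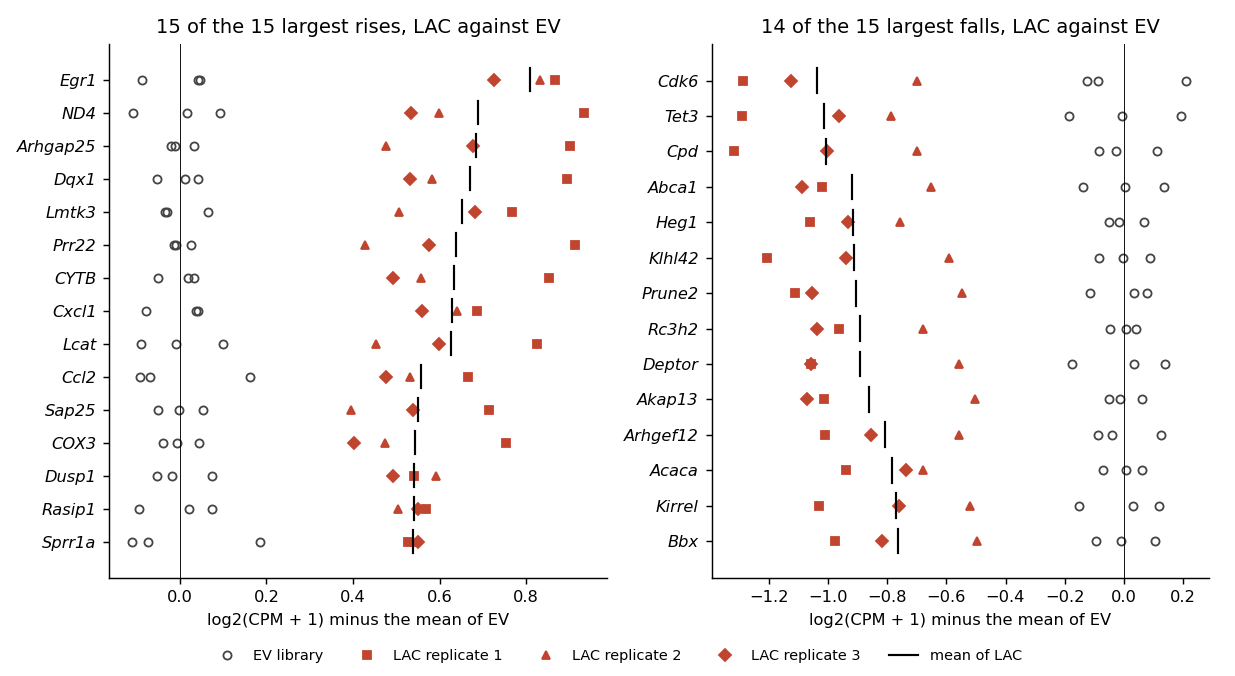
The 15 largest rises (left) and 14 of the 15 largest falls (right) are drawn as log2(CPM + 1) of each library minus the mean of the EV libraries, with open circles for EV, filled symbols for the 3 LAC replicates and a bar for the LAC mean. LAC replicate 2 (triangles) lies nearest to EV in 14 of the 14 falls drawn, and LAC replicate 1 (squares) lies farthest from EV in 13 of the 15 rises.

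Transcripts of the mitochondrial genome formed the list with the highest median. The table lists 4, and all 4 rose, with a median difference of 0.59. CYTB, a core subunit of complex III, stood at 1455, 1387 and 1470.1 CPM in EV and 2596, 2116 and 2021 CPM in LAC, and COX1, the catalytic subunit of cytochrome oxidase, at 10659, 10430.0 and 11117 CPM and 18085, 14466 and 14291 CPM. The log2 differences were 0.63 for CYTB (SE 0.058), 0.53 for COX1 (SE 0.060), 0.54 for COX3 and 0.69 for ND4. LAC replicate 1 lay above the other LAC libraries for each of the 4, and the list's median by library was 0.80, 0.52 and 0.45 in LAC replicates 1, 2 and 3. COX1 ranks first in every library, so quantile normalization gives it 1 value throughout and no difference. Reads of mitochondrial genes can also match copies in the nuclear genome, and how such reads were counted is not given in the sources used here.

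Nuclear genes for the respiratory chain and ATP synthase rose with them. Of 63 listed, 54 rose and 0 fell (1 with quantile normalization), against 22.8% of all genes higher and 27.4% lower, and the median difference was 0.24. Cox6a1 of cytochrome oxidase stood at 372, 353 and 390.3 CPM in EV and 549, 490.3 and 463 CPM in LAC (log2 difference 0.43). The ATP synthase subunits Atp5j (0.36) and Atp5j2 (0.36), Cox4i1 (0.32) and the complex I subunits Ndufa12 (0.36) and Ndufs5 (0.36) were also higher. The 9 that were not called included Atp5a1 (0.014), Sdha (-0.015) and Uqcrc2 (0.049). Mitochondrial ribosomal proteins, which translate the mitochondrial mRNAs, moved alike: 51 of 69 rose and 0 fell, with a median of 0.21. Examples are Mrpl32 (0.45) and Mrps25 (0.36).

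Cytosolic ribosomal proteins rose as a group, with 33 of 35 listed members higher, 0 lower and a median of 0.26. Rps18 stood at 1081, 1068 and 1082 CPM in EV and 1445, 1319 and 1424 CPM in LAC (log2 difference 0.37, SE 0.034), and Rpl39 at 664, 659 and 697 CPM and 903, 831 and 871 CPM (0.37). The LAC libraries lay above the EV libraries in all 35 members, the 2 uncalled ones included, against 27% of all genes. Genes of this family have many processed copies in mammalian genomes, so each single value is uncertain. Factors that build ribosomes were mixed: 17 of 47 rose, 8 fell and the median was 0.079. The snoRNP proteins Nop56 (0.30) and Nop10 (0.27) rose, while the large scaffold proteins Utp20 (-0.28) and Heatr1 (-0.21) fell. Proteasome subunits went mostly up, with 25 of 36 higher, 4 lower (1 after rescaling to the same median) and a median of 0.15. The core subunits Psmb4 (0.29) and Psmb10 (0.27) rose, and the large activator Psme4 fell (-0.27).

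Ribosomal proteins and most respiratory chain subunits are small, and genes for very long proteins went the other way. A list of 120 genes for very long proteins (scaffolds, giant kinases, ubiquitin ligases and others), written from general knowledge after the table had been seen, had 96 listed members, of which 84 fell and 1 rose; leaving out LAC replicate 2 raised the latter to 2, rescaling to the same median raised it to 3, and leaving out EV replicate 1, LAC replicate 1 or LAC replicate 3 brought it to 0. The median difference was -0.28. Usp24, a ubiquitin protease, stood at 137, 149.9 and 139 CPM in EV and 91.8, 101 and 100.1 CPM in LAC (log2 difference -0.54, SE 0.049). Vps13c, a lipid transfer protein, had 118, 137 and 119 CPM in EV and 73.7, 85.1 and 83.2 CPM in LAC (-0.62, SE 0.061). The list's median by library was -0.32, -0.22 and -0.33 in LAC replicates 1, 2 and 3 and between -0.023 and 0.027 in the EV libraries. The exception that rose was Nbeal2 (0.26). Transcript lengths and RNA integrity were not analysed here. The part that they have in the rises and falls, in this list and in the other gene lists, was not tested.

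**Figure D3:**
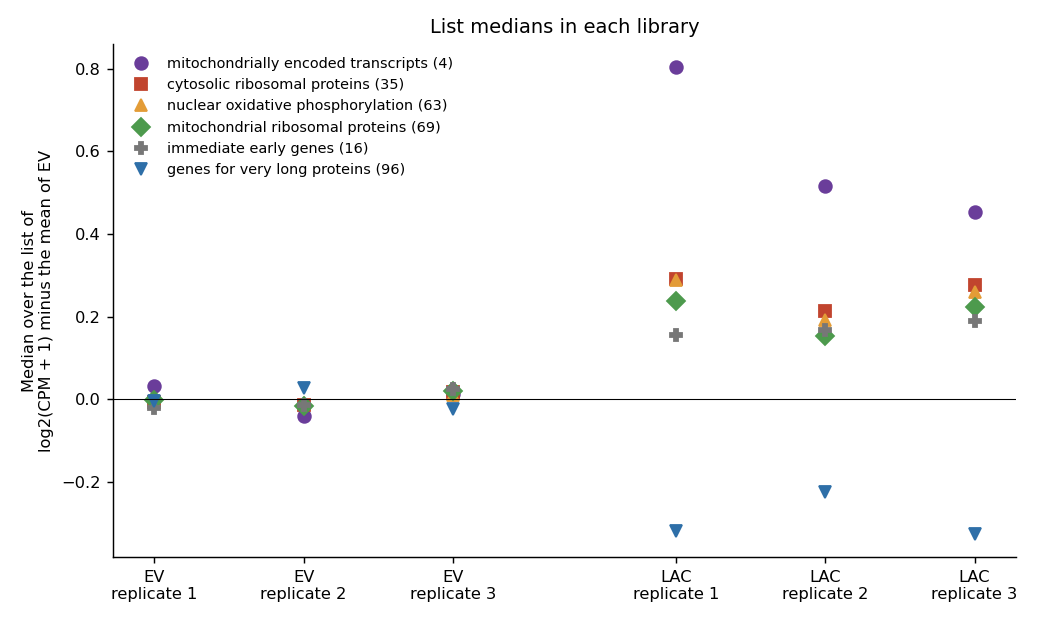
Each symbol is the median over a gene list (number of listed genes in brackets) of log2(CPM + 1) minus the mean of EV, in 1 library. The 4 mitochondrially encoded transcripts, ribosomal proteins, respiratory chain genes and immediate early genes lie above 0 in all 3 LAC libraries and the genes for very long proteins lie below it, with the smallest shift of the last in LAC replicate 2.

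The deepest falls included regulators of the cell cycle, DNA modification and lipid export. Cdk6, a kinase that with D cyclins drives cells through G1, stood at 43.6, 55.2 and 44.7 CPM in EV and 18.9, 28.9 and 21.3 CPM in LAC, a log2 difference of -1.04 (SE 0.113, adjusted p = 7.17e-07). EV replicate 2 was the highest of the untreated libraries and LAC replicate 2 the highest of the treated ones. Tet3, which oxidises 5-methylcytosine, had 48.6, 63.5 and 55.2 CPM in EV and 22.1, 31.7 and 27.9 CPM in LAC (-1.01, SE 0.103). Cpd, the carboxypeptidase D of the Golgi, had 129, 142 and 124 CPM in EV and 52.1, 80.4 and 65.0 CPM in LAC (-1.01, SE 0.094). These were the 3 genes of the table that differed at least 2-fold. The rule that named the largest changes took only genes without overlap between the groups. Abca1, the cholesterol exporter, had 46.9, 56.8 and 51.7 CPM in EV and 24.9, 32.5 and 23.8 CPM in LAC (-0.92, SE 0.095). Others of the 15 largest falls were Heg1 (-0.92), an adhesion receptor of the vessel wall, the mTOR inhibitor Deptor (-0.89), the guanine nucleotide exchange factors Akap13 (-0.86) and Arhgef12 (-0.81) and the RNA-binding protein Rc3h2 (-0.89). Among the 15 largest rises outside the groups above, Arhgap25, a Rac GTPase activating protein, had 196, 195 and 202 CPM in EV and 370.5, 276 and 317 CPM in LAC (0.69, SE 0.064). Lcat (0.63), which esterifies cholesterol in plasma, the Sin3 corepressor subunit Sap25 (0.55), the kinase Lmtk3 (0.65) and the cornified envelope gene Sprr1a (0.54) also rose. Of the 30 largest changes, 23 could be placed on the assembly CriGri-PICRH-1.0. By chromosome name and coordinates alone, 9 of these overlap the whole span of another gene. Exons and strand were not compared, and the strand setting of the counts is not given in the sources used here. Nor was it checked that both genes of a pair lie on the same assembled sequence. Whether reads of another gene were counted under these symbols was therefore not tested. Cdk6, Cpd, Cxcl1, Acaca, Deptor, Akap13 and Rc3h2 are among the 9. Of the other genes with values in the text, the same comparison of coordinates also gave an overlap for Ier3, Ccn1, Rasa1, Nfkb1, Csf1, Ndufa12, Sdha, Mrps25, Rps18, Rpl39, Nop56, Utp20, Psmb4, Psme4, Slc16a1, Pdhx, Ep300, Kat6a, Brpf3, Kat2b, Sirt6, Slc6a6, Srebf2, Ddit3, ASNS, Sel1l, Nfe2l2, Arnt, Bnip3l, Vegfa, P4ha1, Rb1, Anln, Uhrf1, Thbs1, Tgfbr2, Smad4, Timp1, Cald1, GADD45A and Alg3.

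Genes that handle lactate and pyruvate changed little. Of 13 listed, 2 rose and 3 fell, with a median of -0.089; the count that fell was 1 without EV replicate 1 or after rescaling to the same median, and 6 without LAC replicate 2. Slc16a1, the main lactate and pyruvate carrier of the plasma membrane, stood at 225, 226 and 224 CPM in EV and 225, 215 and 215 CPM in LAC, and was not called (log2 difference -0.043, 95% interval -0.12 to 0.033). Bsg, the chaperone that brings this carrier to the membrane, rose from 655, 643 and 696 CPM to 800.4, 753 and 809 CPM (0.24, SE 0.036, adjusted p = 1.7e-05). Mpc2 (0.26), a subunit of the mitochondrial pyruvate carrier, rose too. Pdpr (-0.30), which regulates pyruvate dehydrogenase phosphatase, fell, while Dld (-0.054) and Pdhx (-0.026) of the pyruvate dehydrogenase complex and its kinase Pdk2 (-0.019) were not called.

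Glycolytic enzymes below hexokinase were mostly higher, with 5 of 8 listed rising, 1 falling and a median of 0.15. Aldoa stood at 680.0, 686 and 697 CPM in EV and 827, 799 and 881 CPM in LAC (log2 difference 0.28), and Pgam1 at 649.8, 635 and 636 CPM and 778, 751 and 785 CPM (0.27). GPI (0.21) and the phosphofructokinase Pfkl (0.18) rose less. The exception was Pfkfb3, which makes the allosteric activator of phosphofructokinase. It fell from 37.8, 36.0 and 35.7 CPM in EV to 21.6, 25.0 and 23.6 CPM in LAC (-0.62, SE 0.077, adjusted p = 2.41e-06). Its groups did not overlap, as in 57.8% of all genes. The glucose transporter Slc2a1 rose (0.21). In the TCA cycle 5 of 18 genes rose (27.8%) and 4 fell (22.2%), against 22.8% and 27.4% of all genes. The count that rose was 3 without LAC replicate 1, and the median of 0.023 became -0.0073 without LAC replicate 3. Those that fell included Ogdh (-0.30), Dlst (-0.27) and Glud1 (-0.27), which serve 2-oxoglutarate and glutamate; Sdhb (0.18) and Suclg1 (0.17) were among those that rose. Of 14 genes for the shuttles that carry NADH equivalents and for NAD supply 3 rose and 3 fell, with a median of -0.00093 that turned positive under both rescalings and without EV replicate 1, LAC replicate 1 or LAC replicate 2, reaching 0.040. The count that rose was 0 without EV replicate 1 or LAC replicate 3 and 1 without EV replicate 2 or EV replicate 3, and the count that fell was 5 without LAC replicate 2. The mitochondrial glycerol phosphate dehydrogenase Gpd2 stood apart, at 126, 129.7 and 123 CPM in EV and 88.8, 95.6 and 86.0 CPM in LAC (-0.48, SE 0.049).

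Enzymes that write, read or remove histone acyl marks, lactylation among them, were mostly not called. Of 33 listed 3 rose (9.09%), 9 fell (27.3%) and 21 were not called. Of all genes 22.8% rose and 27.4% fell. The list's median of -0.024 became 0.018 when each library was rescaled to the same median. The count that rose was 7 after that rescaling and 5 with quantile normalization or without LAC replicate 2. Ep300, the p300 acyltransferase, stood at 144, 146 and 144 CPM in EV and 119, 119 and 112 CPM in LAC (log2 difference -0.31, SE 0.043, adjusted p = 9.55e-06). The MOZ acetyltransferase Kat6a had 130.1, 123 and 121 CPM in EV and 79.9, 89.1 and 83.9 CPM in LAC (-0.56), the deepest fall of the list. The acetyltransferase scaffold Brpf3 (-0.40), the acetyltransferase Kat2b (-0.39) and the readers Brd3 (-0.25) and Trim33 (-0.30) fell as well. Those that rose were deacylases, namely the sirtuins Sirt6 (0.35) and Sirt7 (0.27) and, by less, Hdac2 (0.12). Whether the length of the encoded proteins has a part in this division was not tested. Hdac1 (0.033), Hdac3 (0.12) and Crebbp (-0.10), the close relative of p300, were not called.

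Sodium salts add osmotic and ionic load, and genes known from such load were examined for that reason. Of 18 listed 3 rose (1 without EV replicate 2 and 5 after rescaling to the same median) and 9 fell, with a median of -0.10. Nfat5, the transcription factor of the hypertonic response, fell from 59.4, 64.8 and 63.3 CPM in EV to 35.1, 44.8 and 33.8 CPM in LAC (log2 difference -0.72, SE 0.082, adjusted p = 1.16e-06). Transporters that hypertonicity is known to induce through Nfat5, Slc6a6 (-0.19) for taurine and Slc38a2 (-0.15) for neutral amino acids, fell. Wnk1 (-0.53), a kinase that controls chloride cotransport, fell as well. Fxyd5, a modulator of the sodium pump, rose from 128, 135 and 143 CPM to 194, 165 and 182 CPM (0.41). Its groups did not overlap, as in 57.8% of all genes.

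Lipid synthesis genes were lower on balance. In cholesterol synthesis 9 of 21 listed genes fell and 2 rose, with a median of -0.096; the count that rose was 1 without EV replicate 1 or LAC replicate 1 and 0 without EV replicate 2, but 5 after rescaling to the same median and 4 with quantile normalization. Hmgcs1, which makes HMG-CoA, stood at 49.3, 45.8 and 46.4 CPM in EV and 30.8, 34.5 and 33.3 CPM in LAC (log2 difference -0.51, SE 0.069). Srebf2, the transcription factor of the pathway, had 191, 202 and 202 CPM in EV and 149, 161 and 158 CPM in LAC (-0.35, SE 0.042). Lss (-0.43), which cyclises squalene epoxide to lanosterol, fell as well. In fatty acid synthesis 7 of 14 fell and 2 rose, with a median of -0.11; the count that rose was 1 without EV replicate 1 or EV replicate 3 and 0 without EV replicate 2 or LAC replicate 1. Acaca, which commits acetyl-CoA to the pathway, fell from 133, 146 and 141 CPM in EV to 72.5, 87.1 and 83.6 CPM in LAC (-0.79, SE 0.058, adjusted p = 1.88e-08). Fasn, the synthase itself, had 879, 855 and 821 CPM and 748, 752 and 722 CPM (-0.20), and the desaturases Scd2 (-0.33) and Scd1 (-0.21) fell.

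Stress pathways gave different pictures. Among 30 listed ATF4 targets and amino acid supply genes 6 rose and 9 fell (5 without EV replicate 1 or EV replicate 2 or after rescaling to the same median), with a median of -0.022 that became 0.020 when each library was rescaled to the same median and 0.00060 with a minimum of 50 CPM. Those that rose included Nupr1 (0.41), Cebpb (0.34), Ddit3 (0.30) and Atf4 itself (0.17), all transcription regulators. Among the falls, Slc7a5, which carries leucine, stood at 140.0, 148 and 141 CPM in EV and 93.8, 108 and 93.3 CPM in LAC (log2 difference -0.54, SE 0.053), and Slc1a4 (-0.41) and Psat1 (-0.24) of serine supply fell too, while ASNS was not called (0.023). In the unfolded protein response 10 of 23 rose and 5 fell, with a median of 0.065. Ppp1r15a, a phosphatase subunit that restarts translation, had 47.6, 44.1 and 44.9 CPM in EV and 63.3, 58.4 and 62.6 CPM in LAC (0.42), and the secreted chaperone Manf (0.30) and Creld2 (0.22) rose. Sel1l (-0.65) and Edem1 (-0.42), which act in ER-associated degradation, fell, as did the sensor Atf6 (-0.38).

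Antioxidant genes rose more often than not. Of 29 listed NRF2 targets and thiol redox genes 15 rose and 4 fell, with a median of 0.13; the count that fell was 1 without EV replicate 1 or LAC replicate 1 or after rescaling to the same median, and 2 without EV replicate 3. Peroxiredoxins and glutathione transferases led them: PRDX2 stood at 155, 159.5 and 158 CPM in EV and 207, 189 and 199 CPM in LAC (log2 difference 0.33), and Gstm1 at 163, 161 and 168 CPM and 209.6, 199 and 205 CPM (0.32). Keap1, the inhibitor of NRF2, rose (0.28), the efflux pump Abcc1 fell (-0.35), and Hmox1 (-0.012) and Nfe2l2 (-0.017), which encodes NRF2, were not called. Among 13 hypoxia genes 4 rose and 4 fell (30.8% each, against 22.8% and 27.4% of all genes), with a median of -9.4e-05. That median became 0.041 when each library was rescaled to the same median. It was also positive with quantile normalization, with voom, and without EV replicate 2, LAC replicate 1 or LAC replicate 3. The falls were Hif1a (-0.29), its partner Arnt (-0.27), Epas1 (-0.23) and Bnip3l (-0.30). The rises included the growth factor Vegfa (0.28), the collagen hydroxylase P4ha1 (0.21) and Slc2a1.

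Cell cycle genes were mixed. Of 14 listed G1 cyclins, kinases and pocket proteins 6 fell, with a median of -0.069. Cdkn1a alone rose (0.14); it lost its call without EV replicate 1, EV replicate 2, LAC replicate 1 or LAC replicate 3, while the count that rose was 2 without LAC replicate 2 and 3 after rescaling to the same median. Ccnd2, the cyclin D2 partner of Cdk6, stood at 53.2, 52.6 and 47.1 CPM in EV and 26.2, 34.1 and 31.9 CPM in LAC (log2 difference -0.72, SE 0.084, adjusted p = 1.35e-06), while Ccnd1 was not called (-0.036). The retinoblastoma family genes Rb1 (-0.36), Rbl1 (-0.34) and Rbl2 (-0.32) fell together. Among 56 mitosis genes 20 fell and 10 rose, with a median of -0.029 that became 0.012 when each library was rescaled to the same median; the count that rose was 6 without EV replicate 1 and 5 without EV replicate 2, EV replicate 3 or LAC replicate 3. The cytokinesis scaffold Anln (-0.57), the condensin Smc2 (-0.38) and Top2a (-0.27) fell and the small ubiquitin conjugating enzyme Ube2c (0.29) rose. Among 47 S phase genes 9 fell (19.1%) and 6 rose (12.8%), lower shares than the 27.4% and 22.8% of all genes. Their median was 0.025. After rescaling to the same median 13 rose and 8 fell, and with quantile normalization 10 rose and 11 fell. The replication factor Rfc1 (-0.33) and Uhrf1 (-0.25) were among the falls. In bulk RNA, fewer cells in a phase and less RNA per cell cannot be told apart.

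Matrix genes and genes of TGF-beta signalling were divided. Of 33 listed 13 fell and 8 rose, with a median of -0.023 that became 0.019 when each library was rescaled to the same median and 0.00062 with quantile normalization. The basement membrane proteins Hspg2, at 852, 814 and 789.7 CPM in EV and 617, 649.8 and 583 CPM in LAC (log2 difference -0.41), and Nid1 (-0.43) fell, together with fibronectin (Fn1, -0.33) and thrombospondin (Thbs1, -0.32). Hspg2 is also on the list of genes for very long proteins. Both TGF-beta receptors, Tgfbr1 (-0.37) and Tgfbr2 (-0.30), and Smad4 (-0.31) fell, while the ligand Tgfb1 rose (0.20). The rises also held the procollagen processing enhancer Pcolce (0.32) and the protease inhibitor Timp1 (0.29). Of 11 genes known from stellate cells or myofibroblasts, 5 rose and 1 fell, with a median of 0.14. LGALS1 (0.34) and S100a6 (0.31), small proteins that fibroblasts make in quantity, rose and Cald1 (-0.26) fell.

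**Figure D4:**
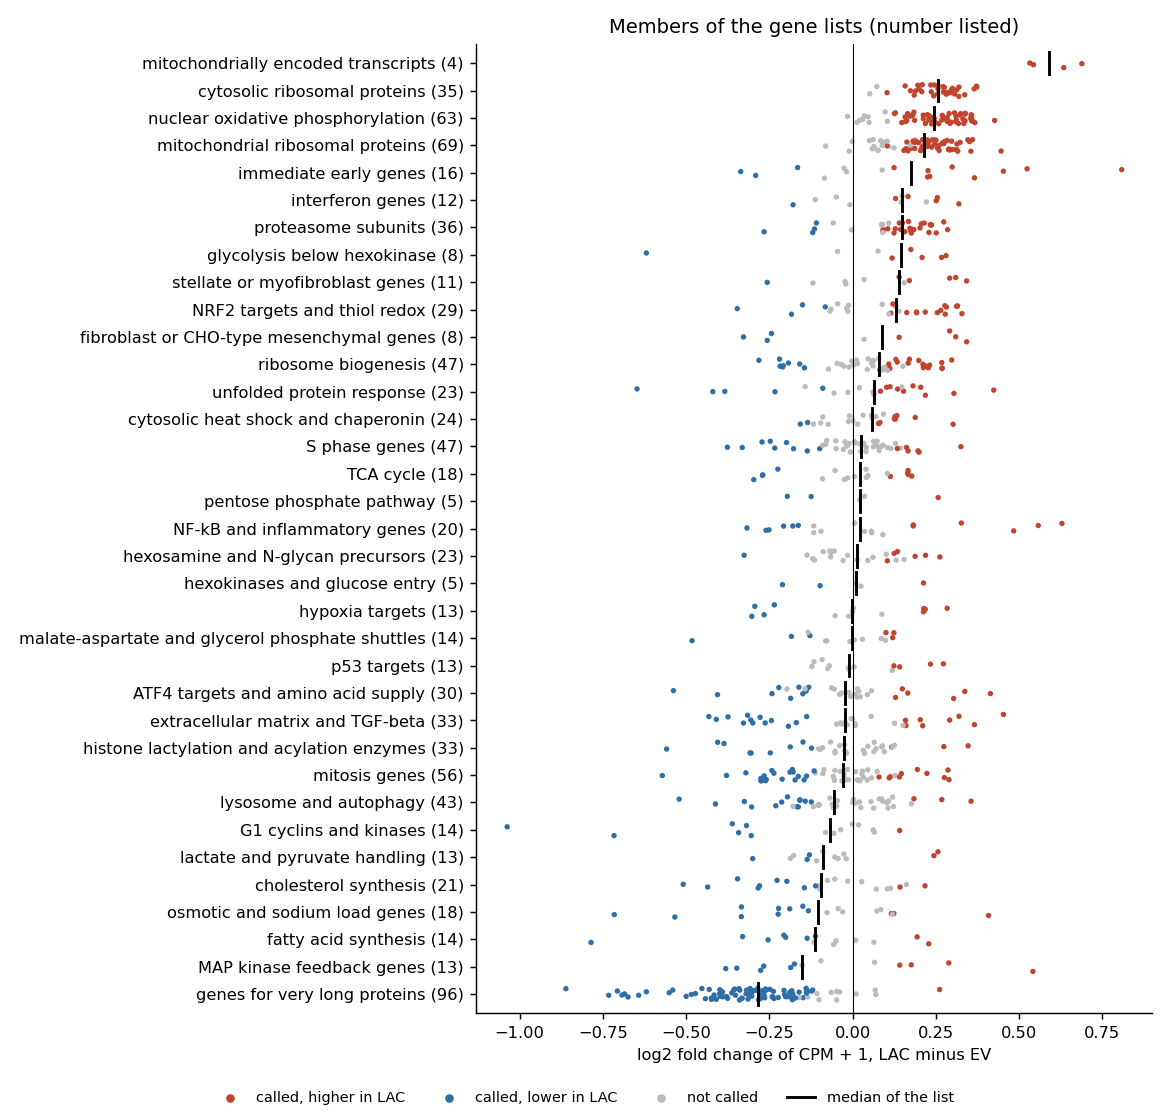
Each point is a listed member of a gene list (number listed in brackets) at its log2 fold change of CPM + 1, LAC minus EV, coloured by its call, with a bar at the list's median. The mitochondrially encoded transcripts stand highest, with a median of 0.59, and the genes for very long proteins lowest, with a median of -0.28.

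A direct test set the lactate-treated cells against the cells labelled WTHK2, with all 9 libraries in the fit. The 2 groups differed in 1089 genes (16.1%), of which 524 were higher in LAC (7.76%) and 565 lower (8.37%). These counts depended on single libraries, with 329 higher and 333 lower without WTHK2 replicate 3 and 331 higher and 370 lower without LAC replicate 3. Hk2 was not called between them (0.054). Whether transcripts of the HK2 vector were counted under this symbol is not given in the sources used here, so its level does not check the label.

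Dusp1 and Ccl2 were higher with lactate than in the libraries labelled WTHK2. Dusp1 had 106, 109.6 and 102 CPM in the LAC libraries and 72.6, 71.8 and 74.7 CPM in the WTHK2 libraries (log2 difference, LAC minus WTHK2, 0.53, SE 0.051, adjusted p = 3.13e-07). For Ccl2 the means were 306 ± 20.9 CPM and 228 ± 12.9 CPM (0.42, SE 0.059, adjusted p = 3.63e-05). Ppp1r15a (0.43), Vegfa (0.45), Csf1 (0.44) and Pgam1 (0.31) were also higher in LAC. Egr1, by contrast, was lower in LAC, at 127 ± 6.43 CPM against 152 ± 8.97 CPM (-0.25, adjusted p = 0.00277). Of the 15 largest rises, 4 were higher in LAC than in WTHK2, 1 was lower and 10 were not called. The 4 were Dusp1, Ccl2, Dqx1, which lost its call without WTHK2 replicate 3, and Cxcl1, which lost it in the fit of the 6 libraries and without any one of 5 libraries (adjusted p up to 0.178). Of the 15 largest falls 13 were not called, and Abca1 (-0.58) and Heg1 (-0.43) were lower in LAC. Both sets were chosen for their LAC values against EV, and the same LAC libraries enter this test. That choice favours higher LAC values among the rises and lower ones among the falls. For Cdk6 the 95% interval of the difference ran from -0.25 to 0.33, and for CYTB from -0.078 to 0.24.

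Cholesterol synthesis had the largest median difference between LAC and WTHK2 among the lists. Of its 21 listed genes 18 were lower in LAC than in WTHK2 and 0 were higher, with a median of -0.43. Hmgcs1 stood at 32.9 ± 1.90 CPM in LAC and 58.5 ± 2.73 CPM in WTHK2 (-0.81, SE 0.065, adjusted p = 1.93e-08). Unfolded protein response genes were lower in 15 of 23 and higher in 3, with a median of -0.17. ATF4 targets were higher in LAC in 16 of 30 and lower in 0 (median 0.15), and NF-kB and inflammatory genes were higher in 11 of 20 and lower in 0 (median 0.20). Relative to the EV mean, the cholesterol list's median lay between 0.27 and 0.32 in WTHK2 libraries and between -0.14 and -0.045 in LAC libraries. For ATF4 targets it lay between -0.24 and -0.16 in WTHK2 and between -0.038 and -0.0062 in LAC. For NF-kB genes it lay between -0.14 and -0.071 in WTHK2 and between -0.019 and 0.0025 in LAC. For the unfolded protein response it lay between 0.099 and 0.21 in WTHK2 and between 0.059 and 0.095 in LAC. The NAD kinase gene Nadk was lower in LAC (-0.62, adjusted p = 1.42e-08). None of the 4 mitochondrially encoded transcripts was called between the 2 groups, though CYTB was without WTHK2 replicate 1 (adjusted p = 0.0289). Of the 96 listed genes for very long proteins, 12 were lower and 6 higher in LAC than in WTHK2, with a median of -0.017.

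**Figure D5:**
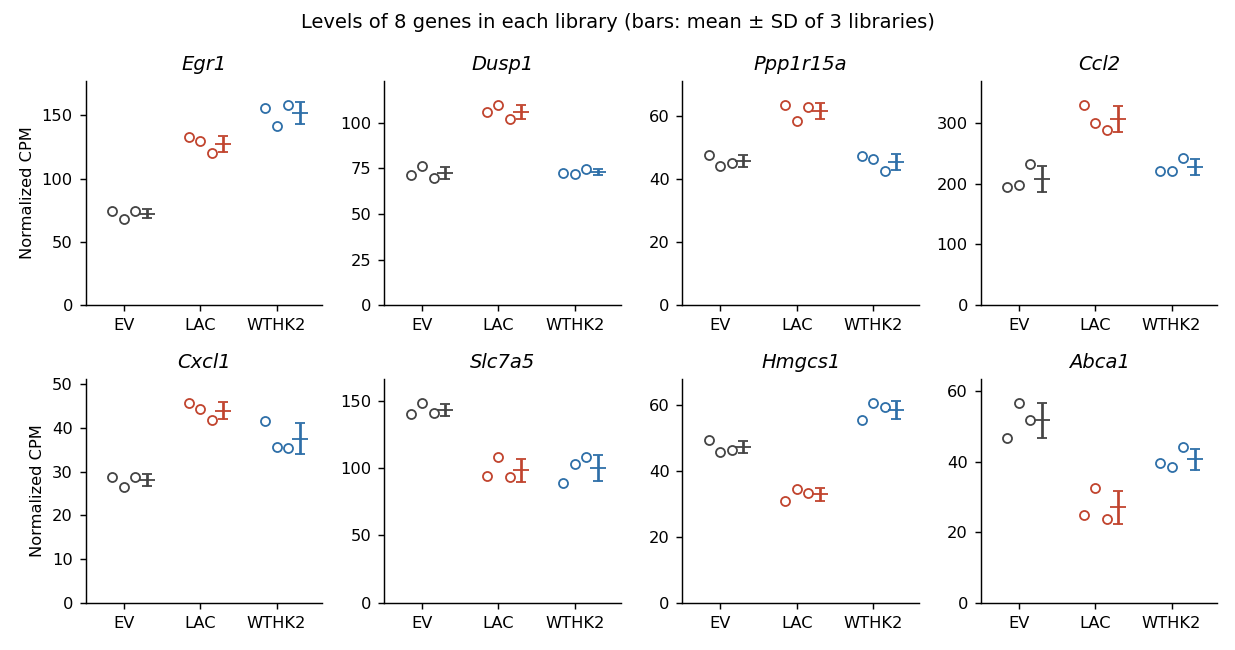
Normalised CPM in each library (open circles) of 8 genes chosen after their values were seen, for EV, LAC and the libraries labelled WTHK2, with bars at the mean ± SD of 3 libraries and axes that start at 0. Dusp1, Ppp1r15a and Ccl2 lie higher in LAC than in both other groups, Egr1 and Cxcl1 lie above EV in both, and Hmgcs1 is lowest in LAC and highest in WTHK2.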

How the data were processed

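mRNA of MI5-4 CHO cells was sequenced in 3 EV, 3 LAC and 3 WTHK2 libraries, grouped by their labels. Per the submitters' processing notes, the tools were edgeR 3.8, featureCounts 2.0.1, STAR 2.7.0a, FastQC 0.11.8 and cutadapt 1.18. The build, annotation and strand setting were not given in the sources used here. For 6753 genes the authors deposited CPM scaled to effective library sizes, and 0 columns belonged to other samples. The values in each library were whole multiples of 1 step within 0.00011 of a read, from which the effective library sizes and read numbers given here were inferred; they did not pass the check set for a count test on recovered reads, so voom on them serves only as an alternative. At these depths the fewest reads per gene, 334 in the LAC and EV libraries, leave counting error small.

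Values were put on log2(CPM + 1), so fold changes of low genes are slightly understated, and a minimum mean of 1 CPM removed 0 genes. The 6 LAC and EV libraries were fitted with limma (version 3.58.1, R 4.3.3), using a trended variance without covariates, two-sided, with Benjamini-Hochberg adjustment over all genes. The difference of LAC from WTHK2 was fitted on all 9 libraries. Tables used pandas 2.3.3 and numpy 2.4.6 under Python 3.11.15, and plots used matplotlib 3.10.9.

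Named genes were Hk1 and Hk2, the 15 largest rises and 15 largest falls among called, non-overlapping genes that had a symbol and averaged 5 CPM or more, and from each gene list the called members with the lowest adjusted p, at most 4 (at most 2 uncalled ones in a list without calls). The 58 further list members in the text were chosen after their values were seen, and some genes that the rules name are not reported here. The comparison, the 39 lists (35 with listed members) and the rules were chosen with earlier results of these data known, and the list of genes for very long proteins was written after the table was seen. Lists are described by counts and medians, without a set test. Of the listed symbols, 6149 (91.1%) were found in the RefSeq table of CriGri-PICRH-1.0, which served only for names and neighbours. Alternatives were other pseudocounts, a 50 CPM minimum, other scalings, other fits, stricter thresholds, voom on the recovered reads and each library left out in turn.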

Additional observations from a re-analysis of the deposited data

How the results depend on the processing

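None of the called genes named for LAC and EV changed direction in an alternative run; of those not called, Hk2, ASNS, Ccnd1, Hdac1, Hmox1, Nfe2l2, Pdhx, Pdk2, Ptgs2 and Sdha took both signs. The 30 largest changes kept their calls throughout, and 13 of the 195 called genes named in the text or in the rule's lists lost theirs in at least 1 alternative. The counts of 1541 genes higher and 1849 lower stayed within 1.5 times of these values under pseudocounts of 0.25 and 4, both rescalings, the fit of all 9 libraries (1512 and 1829), no variance trend (1439 and 1771), robust moderation (1569 and 1865), a minimum of 50 CPM (1148 and 1314 of 4294 genes) and voom, which was added after the data were seen (1571 and 1870). An adjusted p under 0.01 left 1024 genes higher, and a fold of at least 1.2 left 424 higher and 893 lower, because both rules are stricter. Leaving out 1 library gave 1171 to 1738 higher and 1521 to 1965 lower. For LAC against WTHK2 it gave 329 to 629 higher and 333 to 650 lower; the cause was not tested.

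With the replicate number as a block, 1626 genes were higher and 1909 lower in LAC than in EV, and 682 were higher and 732 lower in LAC than in WTHK2. Same-numbered EV and LAC libraries deviated from their group means with correlations of 0.0175, 0.207 and 0.0305. For same-numbered WTHK2 and LAC libraries the correlations were 0.437, 0.251 and 0.0733. Each LAC library correlated best with the WTHK2 library of its own number. LAC replicate 1, however, correlated best with EV replicate 3 (0.185) among the EV libraries. Whether same-numbered libraries were prepared together cannot be told from these values. Of 1190 alternative values of list counts 99 moved by more than 1.5 times, and of 595 list medians 43 moved by more than the spread of the LAC libraries. A minimum of 50 CPM, which tests fewer genes, left 2 of the mitochondrially encoded transcripts, 32 mitochondrial ribosomal protein genes, 1 cholesterol, 0 fatty acid, 1 lactate and 3 hexosamine genes rising, and 2 G1 genes and 0 glycolytic genes falling. Without the variance trend 0 shuttle, 1 cholesterol, 2 p53, 6 mitosis and 0 G1 genes rose and 2 proteasome genes fell. The fit of all 9 libraries left 1 fatty acid gene rising.

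A minimum of 1 CPM equals no minimum here. A quasi-likelihood test of recovered reads and a correction for protein length were not run. Genes under the table's lowest mean and differences in transcript integrity were not analysed here, and 3 libraries a group limit the precision.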

Other observations

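Of 43 listed lysosome and autophagy genes 14 fell (32.6%) and 3 rose (6.98%), against 27.4% and 22.8% of all genes. Their median was -0.057. After rescaling to the same median 9 fell and 8 rose, and the median was -0.016. Further, 8 fell without EV replicate 2 and 9 without LAC replicate 3, and 5 rose without EV replicate 3 and 6 without LAC replicate 2. The proton pump subunit Atp6v0a1 fell from 51.0, 51.1 and 51.2 CPM in EV to 36.9, 36.9 and 40.8 CPM in LAC (log2 difference -0.41). The cysteine proteases ctsz, at 753, 736 and 801 CPM in EV and 1029, 931 and 973 CPM in LAC (0.36), and Ctsl (0.27) rose. The LAC and EV libraries did not overlap for these 3, which were named for their small adjusted p, nor in 57.8% of all genes.

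Of 12 listed interferon genes 5 rose and 1 fell (0 without EV replicate 1 and under both rescalings), with a median of 0.15. Bst2, which tethers virions, rose from 268, 263 and 278 CPM in EV to 354, 317 and 339.7 CPM in LAC (log2 difference 0.32), and the antigen presentation genes B2M (0.25) and Psmb8 (0.25) rose with it. Among 24 cytosolic heat shock and chaperonin genes 8 rose and 2 fell (4 without LAC replicate 2), with a median of 0.058, and the small heat shock protein Hspb1 had the highest difference (0.30). Of 13 p53 targets 4 rose and 0 fell, with a median of -0.011 that became positive under both rescalings, without EV replicate 2 (0.00072) and with a minimum of 50 CPM (0.12); 1 rose without EV replicate 2 and 2 without LAC replicate 1. GADD45A was the one with the smallest adjusted p (0.23, adjusted p = 0.000971). Of 23 genes for hexosamine and N-glycan precursors 6 rose and 1 fell, with a median of 0.014 (-0.013 without EV replicate 1); 3 rose without EV replicate 1, EV replicate 2, EV replicate 3 or LAC replicate 1, and 2 fell without EV replicate 2. The mannosyltransferases Alg3 (0.26) and Alg9 (-0.33) went opposite ways.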
